A study of Homo sapiens with 6 samples.

Results

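The genes described here are ZIC1, ZIC2, ZIC4 and ZIC5, 4 zinc finger transcription factors of the ZIC family, and statements on ZIC genes cover these 4 only. They were taken by name from the deposited array table, where each had 1 row among 34692 in all. Gene expression had been measured on 6 Illumina bead arrays in cells derived from H9, an established human embryonic stem cell line. Of these, 3 arrays held control neural cells and 3 held isthmic organizer (IsO)-like cells, named for the signalling centre between midbrain and hindbrain. Per the labels' protocols, floating aggregates received 5 µM dorsomorphin and 10 µM SB431542, inhibitors of BMP and of activin and TGF-beta receptors, for the first 4 days in both groups. Plating followed on day 4, with 5 more days of culture. The IsO protocol adds 100 ng/ml FGF8 and CHIR99021, which activates Wnt signalling by inhibiting GSK3 and which the labels give as a range from 0 to 1.2 µM without saying which concentration the arrayed cells received. All samples come from 1 cell line. Nothing in the labels says that the 3 samples of a group were separate cultures, and the p-values therefore reflect the spread among these 3 samples alone, possibly a technical one.

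ZIC proteins bind DNA through zinc fingers related to those of the GLI factors of Hedgehog signalling. In vertebrate embryos they are made in the neural plate, then mainly in the dorsal neural tube and its derivatives, and they act in neural crest formation, in closure of the neural tube and in growth of the cerebellum. Loss of ZIC1 and ZIC4 together is associated with Dandy-Walker malformation of the cerebellum in humans, and mutation of ZIC2 causes holoprosencephaly, a failure to divide the forebrain.

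The 4 genes form neighbouring pairs that are transcribed away from each other. In the RefSeq annotation of GRCh38.p14 the start site of ZIC1 lies 2822 bases from the most upstream start site of ZIC4, on chromosome 3, and that of ZIC2 lies 9875 bases from the most upstream start site of ZIC5, on chromosome 13, with 0 annotated genes between the start sites of either pair. The 250 bases before each of these start sites are shown because the genes lie in these pairs. They are written 5′ to 3′ on the strand of the gene, and capitals mark CCAAT boxes. The windows are chr3:147409115-147409364 on the plus strand for ZIC1, chr3:147406544-147406793 on the minus strand for ZIC4, chr13:99981534-99981783 on the plus strand for ZIC2 and chr13:99971910-99972159 on the minus strand for ZIC5.
ZIC1: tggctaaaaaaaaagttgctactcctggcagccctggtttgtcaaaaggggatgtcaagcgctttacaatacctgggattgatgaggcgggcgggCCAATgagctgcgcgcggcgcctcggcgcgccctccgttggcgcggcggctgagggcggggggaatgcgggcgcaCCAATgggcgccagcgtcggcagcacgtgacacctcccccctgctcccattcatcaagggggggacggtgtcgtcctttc
ZIC4: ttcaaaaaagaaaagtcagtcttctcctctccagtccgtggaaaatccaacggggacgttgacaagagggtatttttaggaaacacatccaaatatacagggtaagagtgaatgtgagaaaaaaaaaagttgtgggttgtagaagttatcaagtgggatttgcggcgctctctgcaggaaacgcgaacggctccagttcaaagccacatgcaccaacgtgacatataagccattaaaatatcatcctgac
ZIC2: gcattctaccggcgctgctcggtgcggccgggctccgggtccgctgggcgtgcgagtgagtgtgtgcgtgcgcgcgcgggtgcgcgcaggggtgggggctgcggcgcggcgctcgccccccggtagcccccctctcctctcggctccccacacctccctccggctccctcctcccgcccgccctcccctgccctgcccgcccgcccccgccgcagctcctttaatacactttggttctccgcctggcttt
ZIC5: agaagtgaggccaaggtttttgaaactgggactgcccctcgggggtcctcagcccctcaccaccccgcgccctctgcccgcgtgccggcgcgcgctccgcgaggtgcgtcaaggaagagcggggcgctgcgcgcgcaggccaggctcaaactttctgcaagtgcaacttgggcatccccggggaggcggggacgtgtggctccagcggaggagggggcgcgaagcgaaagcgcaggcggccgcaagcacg
The ZIC4 window differed from the others in base composition. It precedes the most upstream of 4 annotated start sites, and the ZIC5 window the most upstream of 3. G and C made up 64.4% of the ZIC1 window, 75.6% of the ZIC2 window and 70.4% of the ZIC5 window, but 42.8% of the ZIC4 window, where the median of all 35116 promoter windows of this length in the RefSeq table was 58%. The ZIC1 window held 23 CpG dinucleotides, the ZIC2 window 31, the ZIC5 window 28 and the ZIC4 window 9. The ZIC1 window held 2 CCAAT boxes, at -155 to -151 and at -80 to -76 from the start site, and the other windows none. On both strands, 32% of all windows held CCAAT. None of the 4 windows held CTTTGAT, the core of TCF/LEF sites, which 2.26% of all windows held. Nor did any hold GACCACCCA (a GLI site, 0.199% of windows), CCTGCTG (the core of a ZIC site, 8.48%) or TATAAA (10.7%). No motif overlapped another in these windows.

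All values in this paragraph are deposited linear intensities, with no background subtracted, and a row is called above background on an array where its detection p-value, set against that array's negative controls, was below 0.05. The intensity of a bead depends on its probe, so levels are compared between arrays and not between genes. Median intensity per array lay between 144 and 157, and 13999 to 15232 rows per array were above background. Precision is limited by having 3 arrays per group.

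ZIC2 was well above background in every sample. Its intensity was 15565, 23911 and 21182 on control arrays 1, 2 and 3 and 30226, 26553 and 34130 on IsO arrays 1, 2 and 3. All IsO arrays were above all control arrays, with the lowest value on control array 1. The detection p-value of ZIC2 was 0 on all 6 arrays, and the highest intensity of any row lay between 64280 and 66870 per array. Group means were 20219 ± 4256 for control cells and 30303 ± 3789 for IsO-like cells (SD, n = 3 each).

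ZIC5 lay close to background. Its intensity was 170, 171 and 148 on control arrays 1, 2 and 3 and 227, 214 and 207 on IsO arrays 1, 2 and 3. It was above background on control arrays 1 and 2 but not on control array 3, and on all 3 IsO arrays, and the groups did not overlap. Its means were 163 ± 13.2 in control cells and 216 ± 10.4 in IsO-like cells (SD, n = 3 each).

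On the control arrays neither ZIC1 nor ZIC4 was above background. ZIC1 had 143, 115 and 115 on control arrays 1, 2 and 3 and 282, 158 and 172 on IsO arrays 1, 2 and 3. It was above background on IsO arrays 1 and 3, and its detection p-value on IsO array 2 was 0.0519. ZIC4 had 135, 117 and 92.3 in control cells and 399, 173 and 142 in IsO-like cells, with arrays in the same order. It was above background on IsO arrays 1 and 2. For both genes IsO array 1 was the highest, and ZIC4 on IsO array 3 lay near control array 1. The groups of ZIC1 did not overlap. Of the rows tested below, on normalised values, 8.2% had all IsO arrays above all control arrays, but ZIC1 was not among the tested rows.

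**Figure D1:**
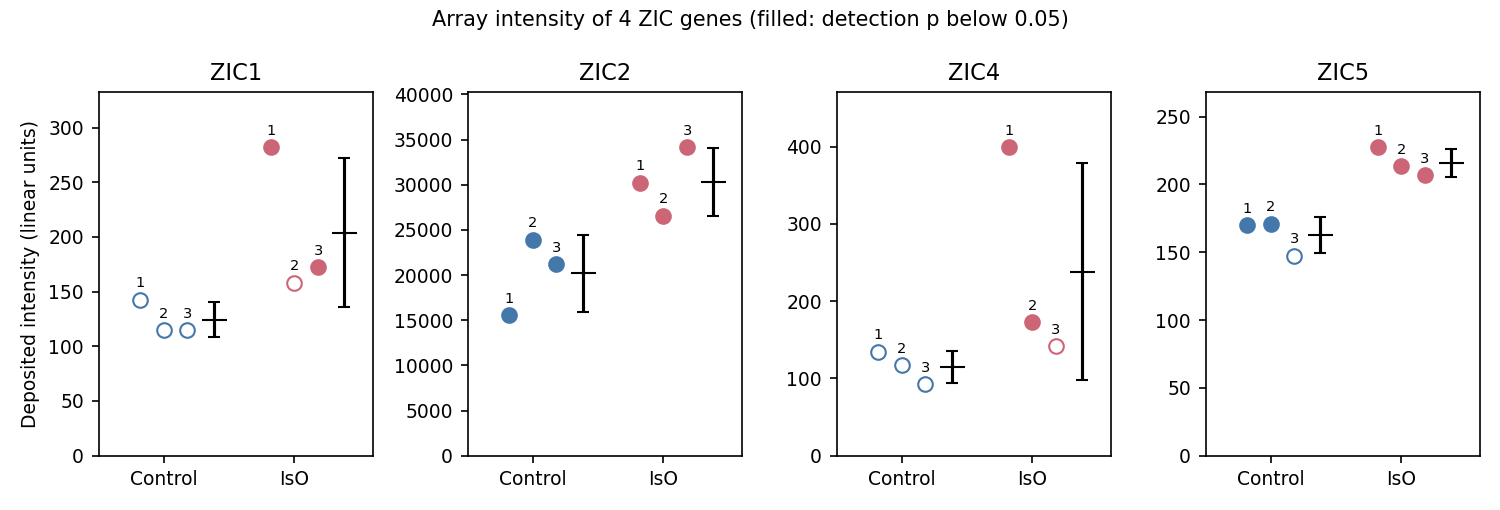
Deposited intensity (linear units) of ZIC1, ZIC2, ZIC4 and ZIC5 on each array, with the replicate number above each point. Filled points have a detection p-value below 0.05, and the horizontal mark with its bar is the group mean ± SD (n = 3). ZIC2 lies between 15565 and 34130, ZIC5 between 148 and 227, and ZIC1 and ZIC4 reach 282 and 399 on IsO array 1.

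For the comparison of IsO-like with control cells, intensities were background-corrected, quantile-normalised and put on the log2 scale, and all differences below are IsO minus control on that scale. The test was limma, run on the 14548 rows whose detection p-values were below 0.05 on 3 or more arrays, with p-values adjusted by Benjamini-Hochberg over all of them. ZIC2 and ZIC5 were tested, while ZIC1 and ZIC4, above background on 2 arrays each, were not. Of these 2 tested genes 0 passed an adjusted p of 0.05 in limma, where 1.31% of all tested rows passed (119 rows higher, 0.818%, and 71 lower, 0.488%). At an unadjusted p below 0.05 both genes were higher, as were 5.36% of all tested rows (9.93% in either direction). All 3 IsO arrays lay above all 3 control arrays for both, as for 8.2% of all tested rows.

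ZIC2 had 14.08, 14.51 and 14.37 on control arrays 1, 2 and 3 and 14.80, 14.74 and 15.00 on IsO arrays 1, 2 and 3. The difference was 0.53 ± 0.20 (SE, 3 arrays per group), or 1.44-fold. Its 95% interval ran from 0.06 to 1.00, and limma gave an adjusted p of 0.420. The same-numbered arrays differed by 0.72, 0.23 and 0.63. Leaving out 1 array at a time gave 0.40 to 0.62. The difference was thus above 0 in every pair of same-numbered arrays and without any 1 array, while its adjusted p stayed above 0.05 without any 1 array.

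ZIC5 had 6.10, 5.94 and 5.58 on control arrays 1, 2 and 3 and 6.53, 6.84 and 6.57 on IsO arrays 1, 2 and 3. The difference was 0.77 ± 0.21 (SE, 3 arrays per group), or 1.71-fold. Its 95% interval ran from 0.27 to 1.28, and limma gave an adjusted p of 0.218. The same-numbered arrays differed by 0.43, 0.90 and 0.99. The size of this difference changed with the background correction, being 0.35 without correction and 0.03 with the background estimated from all rows.

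ZIC1 had log2 values of 5.53, 4.98 and 5.04 on control arrays 1, 2 and 3 and 7.02, 5.76 and 5.87 on IsO arrays 1, 2 and 3, a measured difference of 1.03 that includes values at background. With control values raised to the lowest value of a detected row of 1 probe, the mean of ZIC1 was 1.32-fold higher in IsO-like cells. This floored ratio is not a minimum, since it averages all 3 IsO arrays and IsO array 2 was not above background. It was 1.14-fold without background correction and 1.01-fold with the background estimated from all rows. When every row was tested, ZIC1 had an adjusted p of 0.554 in limma (0.317% of rows called higher). With every row tested and the replicate number as a block, a setting added after the data were seen, the adjusted p was 0.0619 (1.15% called higher). A filter on 2 arrays, also added then, gave 0.419, and 0.0480 with the block (0.732% and 2.77% of 16258 rows called higher), but ZIC1 passed that filter only through IsO arrays 1 and 3, so this is not read as a call.

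ZIC4 had 5.37, 5.01 and 4.79 on control arrays 1, 2 and 3 and 7.75, 6.09 and 5.31 on IsO arrays 1, 2 and 3. The measured difference was 1.33, and the floored ratio was 1.48-fold, again no minimum, since IsO array 3 was not above background. It was 1.22-fold without background correction and 1.02-fold with the background from all rows. The groups overlapped, with IsO array 3 below control array 1. The adjusted p was 0.740 in limma when every row was tested, and 0.174 with the replicate block.

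Leaving out IsO array 1 lowered the values of ZIC1 and ZIC4. Without it the measured difference of ZIC1 was 0.63 in place of 1.03, and that of ZIC4 was 0.64 in place of 1.33. The floored ratios were then below 1-fold, at -0.0049 and -0.12 on the log2 scale. For ZIC2 and ZIC5 it was 0.55 and 0.83 without that array. A two-sided exact permutation test over the 6 arrays gave p = 0.1 for ZIC1, ZIC2 and ZIC5, the smallest p that 3 arrays against 3 allow, and p = 0.2 for ZIC4.

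**Figure D2:**
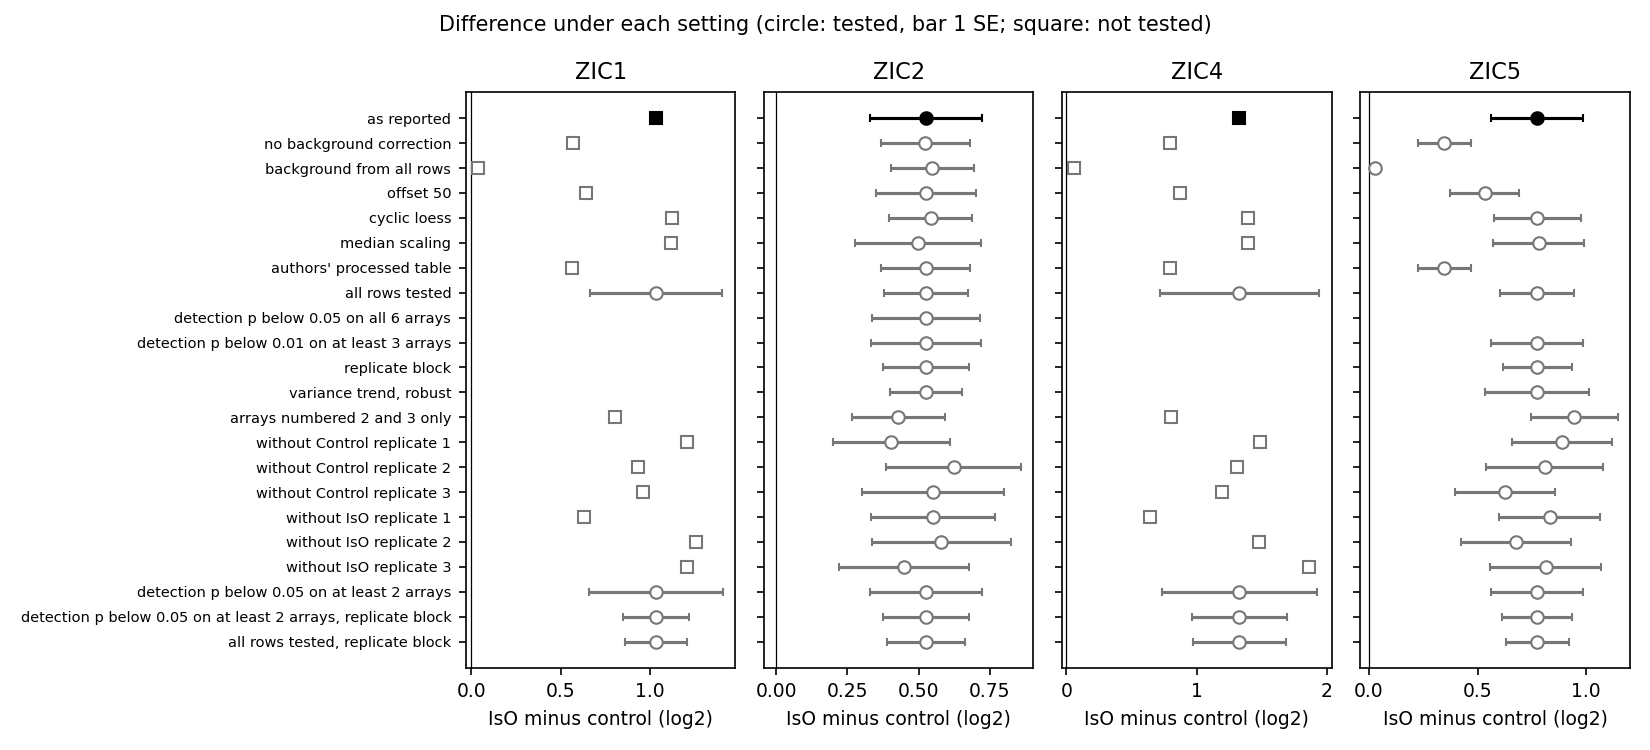
Difference between IsO-like and control cells (log2 scale, horizontal axes differ between panels) for each gene under each processing setting. Circles are tested values with 1 SE, squares are values of rows that the setting does not test, and black marks the reported value. All values lie above 0, and those of ZIC1, ZIC4 and ZIC5 come close to 0 with the background estimated from all rows (0.04, 0.06 and 0.03).

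Unequal change within a neighbouring pair was measured within arrays. The log2 value of ZIC2 minus that of ZIC5 shifted by -0.25 between control and IsO-like cells (exact permutation test, two-sided, p = 0.4, or 0.6 adjusted over both pairs), a value that turned to 0.18 without background correction and to 0.52 with the background from all rows. With 3 arrays per group p cannot fall below 0.1, and the shift does not show that ZIC2 and ZIC5 changed alike. No comparison of ZIC1 with ZIC4 is given, since neither was above background in control cells.

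Rows with the pattern most like that of a ZIC gene were found by the root-mean-square distance between log2 values centred on each row's mean over the 6 arrays. Of 14547 other tested rows, the closest to ZIC2 were LOC391045, CMBL, which encodes a hydrolase, and HRASLS, an older symbol of the phospholipase gene PLAAT1, at distances of 0.03, 0.06 and 0.06 (median of all rows 0.42). Their differences of 0.54, 0.60 and 0.54 did not pass. The closest to ZIC5 were CHRNB4, a nicotinic receptor subunit, LOC100129667 and KLF3, a zinc finger repressor, at 0.08, 0.12 and 0.12 (median 0.55). Their differences of 0.75, 0.75 and 0.76 did not pass either. All these rows were chosen on the same 6 arrays, so differences near those of ZIC2 and ZIC5 follow from the choice. Over the alternatives the lowest differences were 0.05, 0.24 and 0.11 for the rows closest to ZIC2, against 0.40 for ZIC2. For those closest to ZIC5 they were 0.03, 0.04 and 0.03, against 0.03 for ZIC5.

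**Figure D3:**
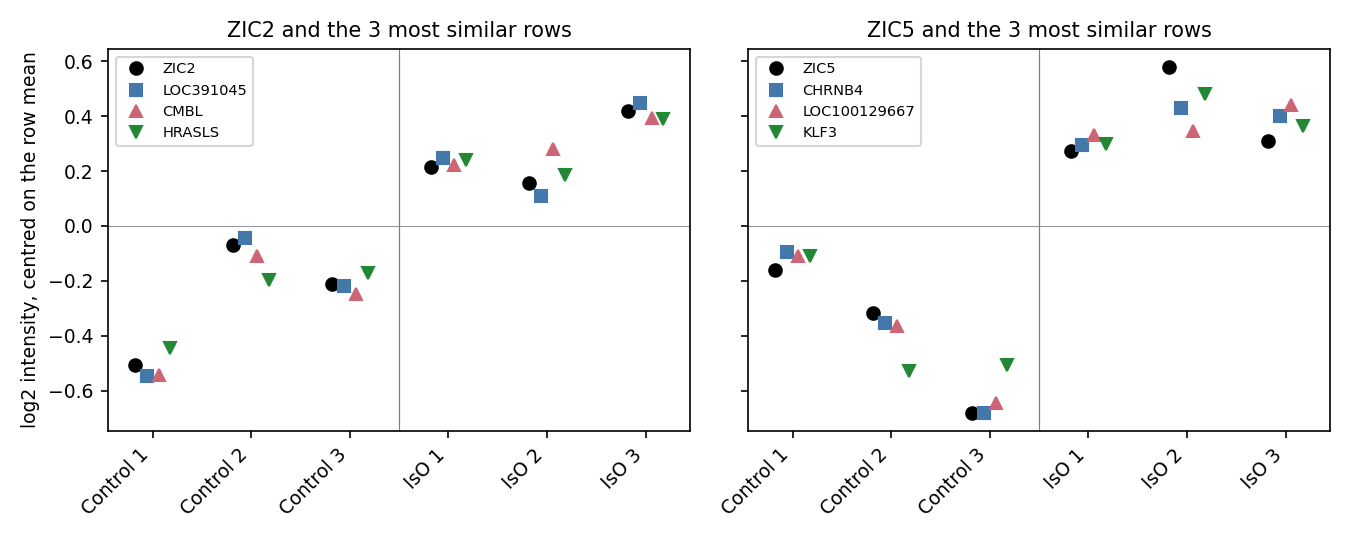
Log2 intensity on each array, centred on the mean of the row over the 6 arrays, for ZIC2 (left) and ZIC5 (right) with the 3 rows closest to each. ZIC2 is lowest on control array 1 (-0.51) and ZIC5 on control array 3 (-0.68), and in each panel the 4 rows lie below 0 on the control arrays and above 0 on the IsO arrays.

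Among genes that act at the border of the neural plate and in the dorsal neural tube, where ZIC factors also act, several rose in IsO-like cells. Of 18 listed genes 14 were tested, 6 rose (0.818% of all tested rows), 0 fell and 8 did not pass. With the replicate block 11 rose (3.31% of all tested rows). The median difference was 1.77, against -0.01 over all tested rows. Those that rose were OLIG3, a factor of dorsal progenitors (3.89 ± 0.63), WNT1 and WNT3A, secreted signals of the dorsal midline (3.65 ± 0.30 and 3.23 ± 0.44), MSX2 and MSX1, homeobox factors (3.53 ± 0.36 and 2.99 ± 0.47), and PAX3, which acts with ZIC1 in neural crest induction in Xenopus (1.72 ± 0.21, SE, n = 3 each, adjusted p from 0.00364 to 0.0453 in limma). PAX3 was not above background on any control array and, with the background correction used here, was at least 2.38-fold higher. That bound holds for this setting only. Over 20 alternatives the measured difference of PAX3 went as low as 0.07, and its call was lost in 5. TFAP2A and SNAI2, neural crest factors, missed the threshold, with differences of 1.91 ± 0.50 and 1.82 ± 0.67 (limma, adjusted p = 0.192 and 0.410), and passed with the replicate block (adjusted p = 0.0217 and 0.0162). The count of 6 fell when single arrays were left out, being 1 without control array 2, IsO array 2 or IsO array 3 and 2 without control array 3.

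Among relatives of ZIC proteins with GLI-type zinc fingers no tested gene passed. Of 7 listed genes 5 were tested and 0 passed in limma (1.31% of all tested rows), 0 with the replicate block and 0 at an unadjusted p below 0.05 (9.93%). Their median difference was 0.08. GLI1, a Hedgehog effector, differed by 0.89 ± 0.58 and GLI2 by -0.28 ± 0.43 (SE, n = 3 each; limma, adjusted p = 0.787 and 0.957), and without IsO array 1 the values were 1.53 and 0.15. Without IsO array 3 GLI1 differed by 0.43 and GLI2 by -0.57. GLI2 also moved to -0.10 without control array 3 and to -0.52 without control array 1. GLIS1 and GLIS2 were not above background on any array.

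Of 12 genes reported elsewhere as partners or targets of ZIC proteins, mostly in mouse and Xenopus, 5 were tested. Of these 0 rose, 1 fell (0.488% of all tested rows) and 4 did not pass, with a median difference of 0.03. At an unadjusted p below 0.05 in limma there were 4, in either direction (9.93% of all tested rows). With the replicate block 1 rose (3.31% of all tested rows) and 2 fell, where 852 of 14548 rows were called in either direction. ALDH1A2, which makes retinoic acid and is a target of Zic1 in Xenopus, fell by 2.17 ± 0.28 (SE; limma, adjusted p = 0.0225). It was above background on 1 IsO array. Its call was lost in 7 of 20 alternatives, among them no background correction and leaving out control array 2 or 3 or IsO array 2 or 3. SNAI2 differed by the value given above, and EPHB1, an axon guidance receptor regulated by Zic2 in mouse retina, by 1.12 ± 0.25 (adjusted p = 0.121 in limma). MDFI, an inhibitor that binds Zic proteins in mouse, was not above background on any array.

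ZIC1 and ZIC4 were highest on IsO array 1. That array also had the highest summed level of neural crest markers, of neuron markers and of the listed border and dorsal neural tube genes. Isthmic organizer markers had their lowest sum among IsO arrays there (12515, against 18875 and 17678 on IsO arrays 2 and 3). So did neural progenitor markers (84550, against 94325 and 108015). The crest intensities, normalised and summed over 11 genes, came to 13971 on IsO array 1, 4195 and 4465 on IsO arrays 2 and 3, and 3574 to 5293 on the control arrays. Of the 11, 9 were above background on at least 1 control array and all 11 on at least 1 IsO array. Of the 11 crest markers 8 were highest on IsO array 1, as were 17% of all tested rows, while SOX9 was highest on control array 2, NGFR on control array 3 and TWIST1 on IsO array 3. SOX10, a defining factor of neural crest, had log2 values of 12.69 on IsO array 1, 10.02 and 9.92 on IsO arrays 2 and 3, and 10.41, 9.05 and 8.13 on control arrays 1, 2 and 3. FOXD3, chosen after its values were seen, was above background on IsO array 1 alone, at 7.66 against 4.95 to 5.27 on the other arrays. The 11 neuron markers summed to 27937 on IsO array 1, 23332 and 26262 on IsO arrays 2 and 3 and 13986 to 17535 on the control arrays. Of these markers 8 were highest on IsO array 1, while TUBB3, ELAVL3 and NEFL were highest on IsO array 3. Such sums weight the brightest genes most. These were SOX10 in the crest sum on IsO array 1 and TUBB3 (14.24, 14.30 and 14.49 on IsO arrays 1, 2 and 3) in the neuron sum. The border and dorsal neural tube list, which shares genes with the crest list, summed to 52004 on IsO array 1. It summed to 38151 and 36904 on IsO arrays 2 and 3 and to 5132 to 11728 on the control arrays. Of its 18 genes 10 were highest on IsO array 1. Among the others, OLIG3 and GBX2 were highest on IsO array 3 and WNT1 on IsO array 2. The part of any of these lists in the values of ZIC1 and ZIC4 was not tested. In bulk RNA, more cells of a type and more RNA per cell cannot be told apart.

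**Figure D4:**
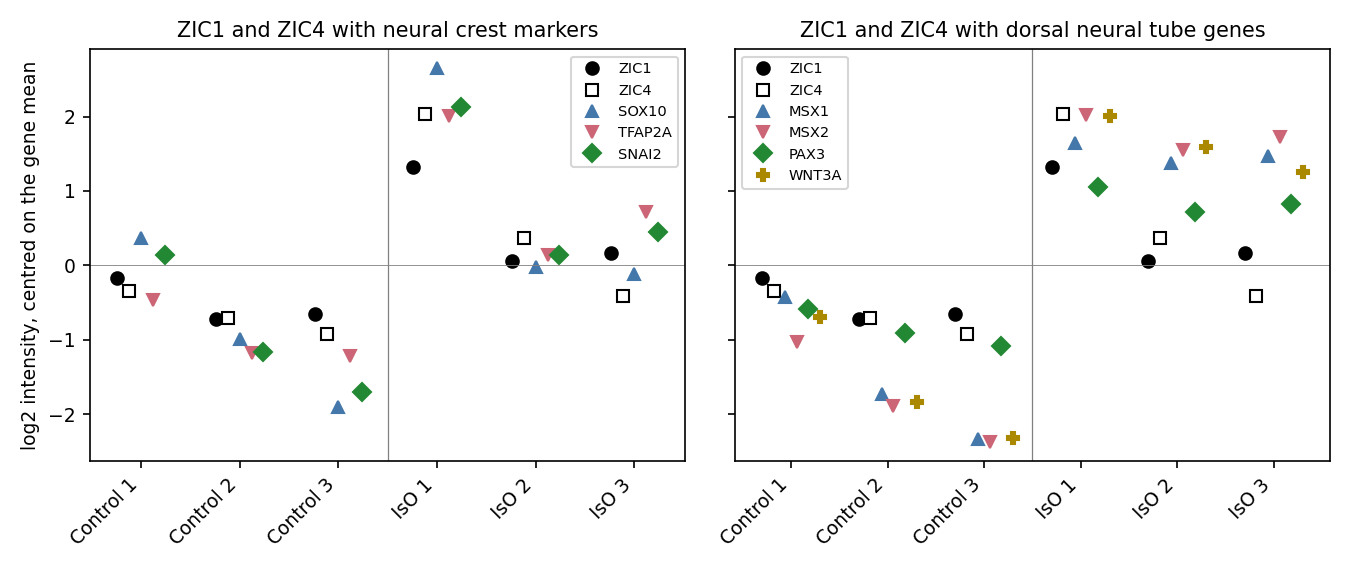
Log2 intensity of ZIC1 and ZIC4 on each array, centred on the mean of each gene over the 6 arrays, beside 3 neural crest markers (left) and 4 dorsal neural tube genes (right), chosen for the plot after their values were seen. All genes shown are highest on IsO array 1, which follows from this choice. OLIG3 and WNT1 of the dorsal list, not shown, are highest on IsO arrays 3 and 2. MSX1, MSX2, PAX3 and WNT3A are also high on the other IsO arrays.

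The labelled cell types were checked on marker lists, where a row of several probes was also taken as above background at the signal of the dimmest detected row of 1 probe. Of 10 neural progenitor markers 9 were above background on at least 1 control array and 10 on at least 1 IsO array, and SOX2 fell while PAX6 and SOX21 did not pass (differences of -1.43, -2.82 and -1.71). The SOX2 call was lost without any 1 array (adjusted p from 0.0611 to 0.207 in limma), PAX6 passed with the replicate block (adjusted p = 0.00222) and without IsO array 1 (0.0483), and SOX21 differed by -0.99 without IsO array 1. Of the 9 that were tested 1 fell, and with the replicate block 4 fell. Over all tested rows 0.818% rose and 0.488% fell in limma, and 9.93% had an unadjusted p below 0.05. With the block 3.31% rose, and 852 of 14548 rows were called in either direction. Of 10 isthmic organizer markers 7 were tested and 5 rose, and with the replicate block 6 rose and SP8 fell (-1.55, adjusted p = 0.0314 in limma). FGF8 did not pass (0.96, adjusted p = 0.609 in limma) but rose with the block (adjusted p = 0.042). PAX2 and LMX1B, above background on 1 IsO array each, and PAX5, above it on no array, were not tested. Of 8 forebrain markers 8 were tested and 7 fell, or 8 with the block. Of 11 neuron markers 9 were tested and 2 rose (5 with the replicate block), and of the 11 neural crest markers 9 were tested and 2 rose (5 with the block). Leaving out 1 array gave 0 to 2 calls for either list, with 0 crest markers called without control array 2 or 3 or IsO array 2 or 3, 0 neuron markers without control array 2 or 3 or IsO array 2, and 1 of either without IsO array 1 and 1 neuron marker without IsO array 3. Of pluripotency markers 4 were tested in limma and 0 passed (0 at an unadjusted p below 0.05), and of mesoderm and endoderm markers 2 were tested and 0 passed (2 at an unadjusted p below 0.05), 1 with the replicate block. Of the 7 pluripotency markers with a row 5 were above background on at least 1 control array and 5 on at least 1 IsO array, DPPA4, DNMT3B and USP44 on all 6, while NANOG exceeded it on none.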

How the data were processed

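The authors deposited linear intensities without background subtraction, each with a detection p-value, per the file headers. The submitters' processing notes name GenomeStudio 2011.1. The deposited table has 1 row per gene name. For 27322 rows, all 4 described here among them, detection p-values lay in steps of 1 over 770. These rows were taken to hold 1 probe. A row with a detection p-value of 0 on every array meets this rule whatever its number of probes. ZIC2 is such a row, so the rule cannot tell how many probes it holds. The count of 27322 may include other such rows. Probe sequences were not used here, so cross-hybridisation between related genes was not tested. A second table deposited by the authors holds log2 intensities, at most 0.00754 from quantile-normalised log2 values without background correction, and served as an alternative. No genome build is given in the sources used here; promoter sequences and positions are RefSeq's, of GRCh38.p14, where all 4 genes matched by symbol.

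Background correction used normexp (limma 3.58.1, R 4.3.3), with the background inferred from the 1-probe rows (means of 122 to 132), an offset of 16, quantile normalisation and log2. Rows with a detection p below 0.05 on at least 3 arrays were tested (lmFit, eBayes, no covariate, Benjamini-Hochberg adjustment); the function was tested on simulated data. A row of several probes was also taken as above background where its signal was at least that of the dimmest detected 1-probe row. Same-numbered arrays deviated together from their group means (correlations of 0.87, 0.40 and 0.66), all above 0.1, so the numbers were used as a block. Differently numbered arrays correlated as well for control array 3 with IsO array 2 (0.49) and control array 2 with IsO array 3 (0.70), so the data set the arrays numbered 1 apart and do not tell numbers 2 and 3 apart; the labels do not state a pairing.

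The genes, lists and tests were chosen with earlier results of these data known. Genes named are the ZIC genes, of each list the members that passed (at most 6) and the 2 with the largest other differences, and the 3 rows most like each tested ZIC gene; of the marker lists, those that bear on a result are named. Alternatives varied the background correction, offset, normalisation, filter, variance model, replicate block and the arrays used. Genes named for their signal against background, or as exceptions within a marker list, were chosen after their values were seen. A further row that the same rule takes is not reported here, though it stays in the fit and in the counts over all rows.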

Additional observations from a re-analysis of the deposited data

How the results depend on the processing

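ZIC2 stayed above 0 and short of an adjusted p of 0.05 under all 21 alternatives (0.40 to 0.62, adjusted p 0.118 to 0.878), and ZIC5 under all 20 that test it (0.03 to 0.95, adjusted p 0.0621 to 0.685); it is not tested where all 6 arrays must be above background. With the replicate block their adjusted p was 0.120 and 0.0621. ZIC1 and ZIC4 moved to 0.0391 and 0.0613 with the background from all rows, and ranged from 0.63 to 1.26 and from 0.64 to 1.87 with 1 array left out. With rows above background on at least 2 arrays and the replicate block, ZIC1 (1.03) had an adjusted p of 0.0480, but it passed that filter only through IsO arrays; with every row tested the block gave 0.0619. The block changed no call of ZIC2, ZIC4 or ZIC5. The shift of ZIC2 minus ZIC5 reversed to 0.18 without background correction and in the authors' table, and to 0.52 with the background from all rows, and GLI2 ranged from -0.57 to 0.15 with 1 array left out, reversing without IsO array 1.

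The 190 calls over all rows became 101 with the background from all rows, 319 with cyclic loess, 81 where all 6 arrays must be above background, 366 on the arrays numbered 2 and 3, 852 with the replicate block, 798 with the block and the filter on 2 arrays, 720 with the block and every row tested, and 40 to 161 with 1 array left out (46 without control array 2, 42 without control array 3, 40 without IsO array 2 and 57 without IsO array 3). The 22 listed genes called became 8 with the background from all rows, 5 where all 6 arrays must be above background 38 with the block under either filter, 36 with the block and every row tested, and 11 to 22 with 1 array left out. The causes were not tested. Values near background limit ZIC1, ZIC4 and ZIC5, and the number of arrays limits all 4 genes.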
